A study of Homo sapiens with 31 samples.

Results

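TGF-beta and SMAD pathway genes were examined as binding regions of the transcription factor EVI1 and its corepressor CTBP2 in leukemia cell lines. The 10 genes were taken by name: the ligand TGFB1, the receptors TGFBR1 and TGFBR2, the receptor-regulated SMAD2 and SMAD3, the common SMAD4, the inhibitory SMAD6 and SMAD7, and the SMAD corepressors SKI and SKIL. They are 10 of 20136 protein-coding genes of the GENCODE annotation on hg19, and each was given a window of the gene body and 30 kb either side, 91.1 to 191 kb long. A peak in a window is a position near the gene and was not shown to act on it, and the windows of TGFB1, SKI and others hold the starts of neighbouring genes.

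The study mapped binding by chromatin immunoprecipitation and sequencing (ChIP-seq), and 13 of its 31 samples came with a list of peaks. MUTZ3 is an acute myelomonocytic leukemia line in which a rearrangement drives EVI1, and unmodified MUTZ3 cells gave 1 list for EVI1 (crosslinked with DSG and formaldehyde) and 1 for CTBP2 (formaldehyde alone). MOLM1 is labelled as a chronic myeloid leukemia line in blast crisis. It carried a doxycycline-inducible short hairpin against EVI1 and was left untreated, so its hairpin was not induced (1 CTBP2 list). MUTZ3 with the retroviral construct p50MX-3xFLAG-3xNLS-4xPLASS-Zeo, whose PLASS repeats are a mutated control that does not bind CTBP, gave 2 CTBP2 lists. Bulk MUTZ3 populations with the inducible construct pCW-4xPLDLS, whose PLDLS repeats are the CTBP-binding motif of EVI1, were harvested at 72 h untreated or with doxycycline (dox), with 2 lists for each protein and treatment. These were all DSG-crosslinked, and 1 input library per treatment served both proteins. The MOLM1 and 4xPLASS lists are labelled DSG, but the study's sample overview gives a single crosslink, so the 2 sources disagree. Nothing in the labels shows whether replicates came from separate cultures, so the spread between them may be technical.

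TGF-beta binds TGFBR2, which recruits and phosphorylates TGFBR1, and the active receptor phosphorylates SMAD2 and SMAD3. These join SMAD4 and enter the nucleus, where they regulate target genes. SMAD7 and SMAD6 block the receptors or the SMAD complex, and SKI and SKIL (SnoN) hold SMAD complexes in a repressive state. EVI1, encoded by the MECOM gene, is a zinc-finger protein known to bind SMAD3 and to repress TGF-beta responses, for which it uses CTBP.

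The lists held 6688 to 72214 peaks, called by the authors for each library against an input. The 10 windows held 55 EVI1 and 49 CTBP2 peaks in unmodified MUTZ3, 140 CTBP2 peaks in MOLM1, and 18 and 74 CTBP2 peaks in the 4xPLASS replicates. The number of peaks moved with the length of the list, and the share of a list in these windows lay between 0.187% and 0.291% in every library. The files give no read depth, so its part in these counts was not tested. Merged over all 13 lists, the windows held 241 separate intervals. Of these, 12 were called in every list and 92 in a single list. The 12 lie at TGFB1 (2), SMAD2 (1), SMAD3 (1), SMAD6 (2), SMAD7 (3), SKI (2) and SKIL (1), while no interval at TGFBR1, TGFBR2 or SMAD4 reached all 13.

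**Figure D1:**
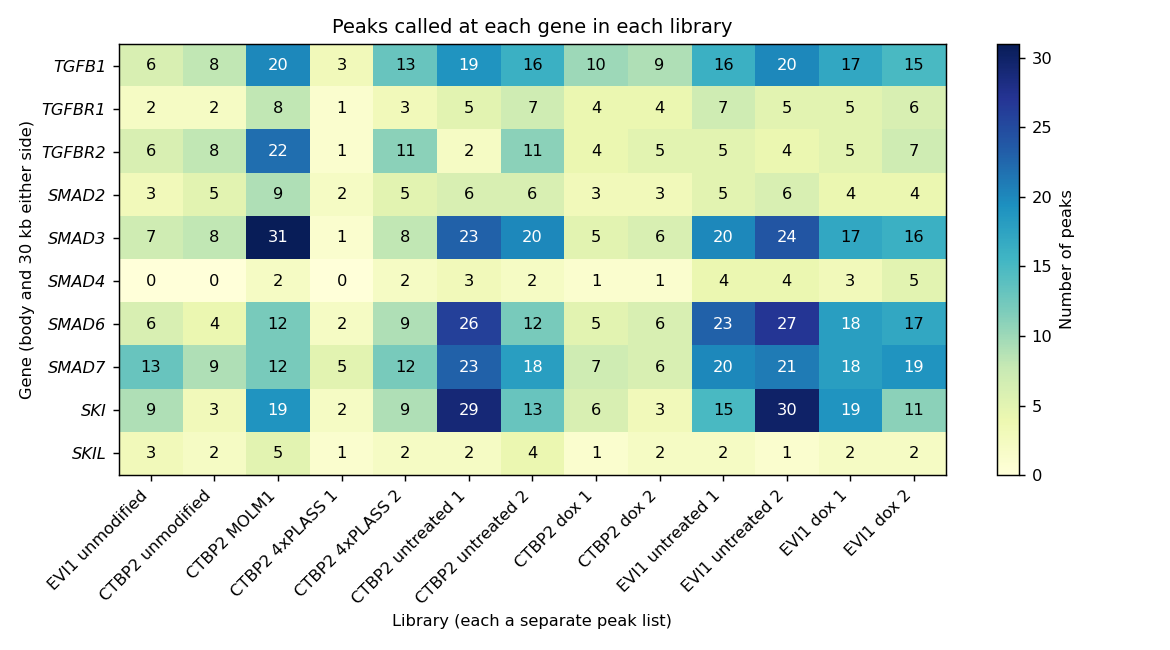
Number of peaks in the window of each gene (rows) in each of the 13 peak lists (columns), printed in the cells and shown by colour. TGFB1, SMAD3, SMAD6, SMAD7 and SKI held the most peaks in untreated inducible cells, and SMAD4 held 0 to 5 in any list.

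With dox, the lists held fewer peaks of both proteins at these genes, and the CTBP2 number was further from its untreated value than the EVI1 number. CTBP2 had 138 and 109 peaks in the untreated replicates and 46 and 45 with dox, and the groups did not overlap. That is a mean of 123.5 ± 20.5 against 45.5 ± 0.707 (SD, n = 2 each), a log2 ratio of −1.44, beside −1.29 over all peaks of the lists. EVI1 had 117 and 142 peaks untreated and 108 and 102 with dox, and these groups did not overlap either. The EVI1 means were 129.5 ± 17.7 against 105 ± 4.24 (SD, n = 2 each), a log2 ratio of −0.30 beside −0.29 over all peaks. Over all peaks of the lists the EVI1 groups did overlap, with 51389 and 72214 untreated and 53806 and 47599 with dox. The CTBP2 groups over all peaks did not overlap. At these genes both exact two-sided permutation tests gave p = 0.333, the smallest that 2 against 2 libraries allow. The design therefore cannot call either difference. When each list was cut to the length of the shortest list of its protein, the CTBP2 ratio became −0.09 and the EVI1 ratio 0.07. The drop in CTBP2 peaks at these genes was thus close to the shortening of the whole lists.

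A site was then defined as an interval called in both untreated replicates, and it was counted as kept where a peak of the same protein overlapped it with dox. The 10 genes held 73 of 37227 CTBP2 sites and 88 of 40449 EVI1 sites. Dox replicate 1 kept 36 CTBP2 sites (49.3%) and replicate 2 kept 32 (43.8%). Their mean was 46.6% ± 3.87 (SD, n = 2), beside 48.7% ± 3.03 over all CTBP2 sites. Without untreated replicate 2, when sites are the peaks of the remaining library, the share was 25%. Both dox replicates kept 30 sites, 1 kept another 8, and neither kept 35 (47.9%, 95% Wilson interval 36.9 to 59.2, counting error only). Over all CTBP2 sites, 41% were kept in neither, which lies inside that interval. The pooled shares mix sites with and without EVI1. Of CTBP2 sites overlapping an EVI1 site, 32 of 67 at these genes were kept in neither (47.8%, interval 36.3 to 59.5). Over all such sites the share was 34.2%, below that interval. Without an EVI1 site, 3 of 6 were kept in neither, beside 73.2%. These differences were not tested, and several sites share a gene. Of the EVI1 sites, 70 (79.5%) and 69 (78.4%) were kept, a mean of 79.0% ± 0.804 beside 84.5% ± 5.20 over all EVI1 sites (SD, n = 2). Neither dox replicate had a peak at 11 EVI1 sites (12.5%, interval 7.13 to 21), beside a background of 9.01%. With lists of equal length, which hold fewer untreated sites at these genes (31 for CTBP2 and 67 for EVI1), the kept shares were 80.6% and 88.1%. This setting was not run over all sites, so these shares have no background and cannot be read as particular to these genes.

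**Figure D2:**
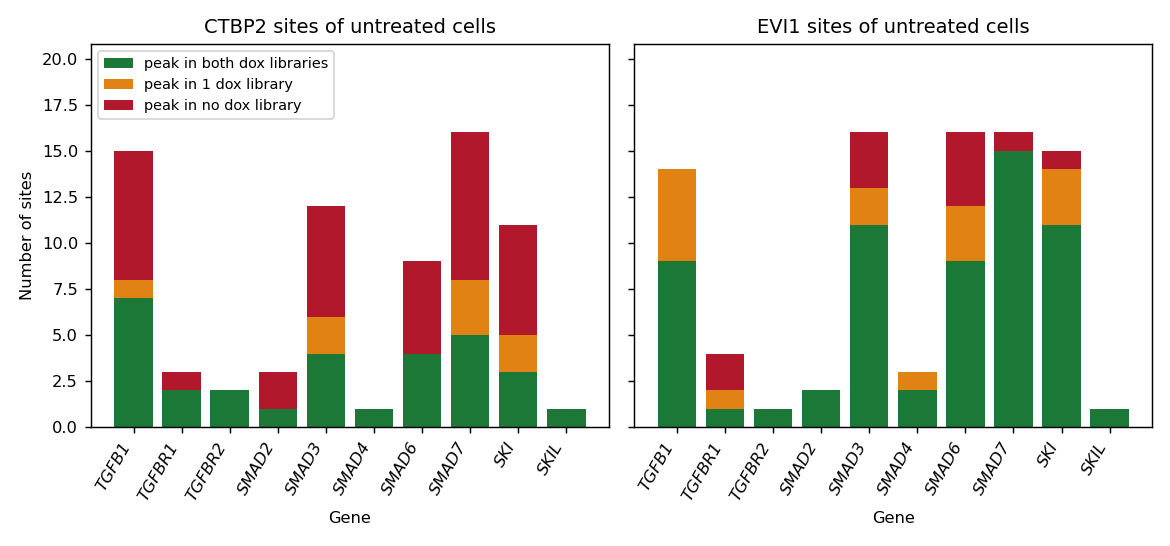
Number of CTBP2 sites (left) and EVI1 sites (right) called in both untreated replicates at each gene, split by whether both, 1 or neither dox replicate had a peak of the same protein there. Of the CTBP2 sites 35 of 73 had no dox peak, against 11 of 88 EVI1 sites.

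Of the 73 CTBP2 sites, 67 (91.8%) overlapped an EVI1 site of the untreated cells, beside a background of 82.5%. Seen from EVI1, 63 of 88 sites (71.6%) overlapped a CTBP2 site, beside 75.9% over all EVI1 sites. Where CTBP2 was lost, EVI1 usually remained: 32 of the 35 lost CTBP2 sites held an EVI1 site. At these 32, an EVI1 peak was called in both dox replicates at 21, in 1 at 7 and in neither at 4. Across all genes, 68.7% of lost CTBP2 sites held an EVI1 site, and EVI1 was found there with dox at 85.4% and 74.7% in the replicates, beside 75% and 78.1% at the 10 genes. Sites seen with dox alone were few. Of 34 CTBP2 sites called in both dox replicates at these genes, 0 lacked an untreated peak, beside 0.96% of all such sites. For EVI1, 3 of 72 did, 1 each at SMAD3, SMAD4 and TGFBR1, beside 4.22%.

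**Figure D3:**
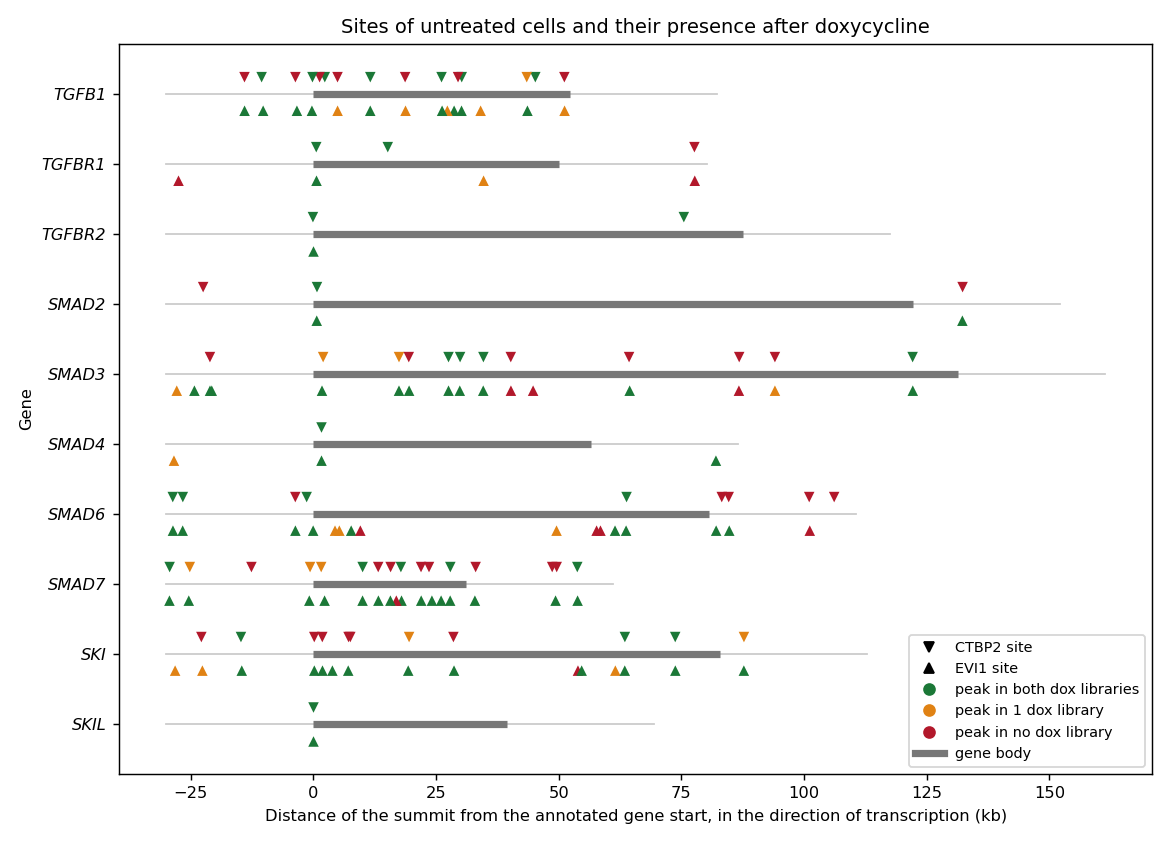
Sites of untreated cells by the distance of their summit from the first base of the gene coordinates (kb, positive in the direction of transcription). Distances in the text are from annotated transcript starts. Downward triangles are CTBP2, upward triangles EVI1, thick bars are gene bodies and thin lines the 30 kb either side. At SKI the CTBP2 sites at the start are red (no dox peak) above green EVI1 sites.

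TGFB1 (ENSG00000105329), the ligand, lies on the minus strand of chromosome 19 (41807492 to 41859827). Unmodified MUTZ3 cells had 6 EVI1 and 8 CTBP2 peaks in its window, MOLM1 had 20, and the 4xPLASS replicates had 3 and 13. In the inducible cells it held 19 and 16 CTBP2 peaks untreated and 10 and 9 with dox, against 16 and 20 EVI1 peaks untreated and 17 and 15 with dox. The groups did not overlap for CTBP2 and did overlap for EVI1. Its window held 15 CTBP2 sites, a number exceeded or matched by few genes (99.1% of protein-coding genes had fewer). Of these, 7 were kept in both dox replicates, 1 in one of them and 7 in neither, and 14 overlapped an EVI1 site. The strongest CTBP2 site by mean rank of fold enrichment, the signal at the summit over the local background, lay at the gene start (chr19:41859438-41860981, summit 154 bp upstream), which is also the start of TMEM91 on the other strand. CTBP2 fold enrichment there was 24.1 and 14.5 untreated and 4.01 and 4.98 with dox, and EVI1 was 23.4 and 30.2 untreated and 13.1 and 8.26 with dox. Both proteins were thus lower with dox than in either untreated replicate, and both still had a peak. A site in an intron at chr19:41833101-41835492 was called in all 13 lists. CTBP2 there was 21.6 and 13.4 untreated and 12.9 and 13.9 with dox, and its groups overlapped.

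The receptors held few CTBP2 sites for these genes, 3 at TGFBR1 and 2 at TGFBR2, beside a median of 6 over the 10 genes. The median over all protein-coding genes was 2, so these numbers are ordinary. TGFBR1 (ENSG00000106799), the kinase that phosphorylates SMAD2 and SMAD3, lies on chromosome 9 (101866320 to 101916474). There were 2 EVI1 and 2 CTBP2 peaks in unmodified MUTZ3, 8 in MOLM1, and 1 and 3 with 4xPLASS. In the inducible cells CTBP2 had 5 and 7 peaks untreated and 4 and 4 with dox, and EVI1 had 7 and 5 untreated and 5 and 6 with dox. Its 3 CTBP2 sites are at the start, in an intron, and downstream of the gene where ALG2 has the nearest start. The start site (chr9:101866547-101868411) had CTBP2 fold enrichments of 10.8 and 7.38 untreated and 5.70 and 5.39 with dox, while EVI1 was 7.21 and 9.04 untreated and 8.66 and 7.05 with dox. CTBP2 was lower with dox in both replicates and EVI1 overlapped between the groups. No peak was called at this start in unmodified MUTZ3, MOLM1 or 4xPLASS cells. The intron site (chr9:101881362-101881730) went the other way, with CTBP2 at 5.96 and 8.15 untreated and 8.66 and 9.97 with dox. Of the 30 member sites with a CTBP2 peak in all 4 lists, it is the only 1 where both dox values exceeded both untreated ones. The background was 1.96% of all such CTBP2 sites. The strongest CTBP2 peaks of unmodified MUTZ3 (chr9:101899357-101899910, 10.7) and MOLM1 (chr9:101899439-101899926, 22.4) lay elsewhere in the gene. No site was defined there, since a site needs a peak in both untreated inducible replicates.

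TGFBR2 (ENSG00000163513), the receptor that binds the ligand, lies on chromosome 3 (30648093 to 30735634). Inducible cells had 2 and 11 CTBP2 peaks untreated and 4 and 5 with dox, and 5 and 4 EVI1 peaks untreated and 5 and 7 with dox. The untreated CTBP2 replicates were further apart than the treatments. Unmodified MUTZ3 had 6 EVI1 and 8 CTBP2 peaks, and the 4xPLASS replicates had 1 and 11. MOLM1 had 22 CTBP2 peaks at TGFBR2, of which 10 (45.5%) overlapped a CTBP2 peak of either untreated inducible MUTZ3 library, beside 60.9% over all MOLM1 peaks and 73.6% (103 of 140) at the 10 genes. The start site (chr3:30647743-30649131) had CTBP2 at 15.7 and 10.4 untreated and 5.47 and 3.45 with dox, and EVI1 at 11.3 and 21.4 untreated and 12.6 and 16.7 with dox. CTBP2 was lower with dox and EVI1 lay inside its untreated range. The other CTBP2 site, in an intron at chr3:30722949-30723752, had no EVI1 site and was kept, at 8.79 and 5.85 untreated and 7.41 and 8.90 with dox.

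SMAD2 (ENSG00000175387), a signal carrier phosphorylated by the receptor, lies on the minus strand of chromosome 18 (45335328 to 45457517). CTBP2 had 6 peaks in each untreated replicate and 3 in each dox replicate, and EVI1 had 5 and 6 untreated and 4 in each dox replicate. The other lists had 3 EVI1 and 5 CTBP2 peaks (unmodified MUTZ3), 9 (MOLM1), and 2 and 5 (4xPLASS). All 9 MOLM1 peaks overlapped a CTBP2 peak of an untreated inducible library. Of 3 CTBP2 sites, 1 was kept in both dox replicates and 2 were lost. The kept one lies over the gene start (chr18:45456260-45458511) and was called in all 13 lists. It held the highest CTBP2 fold enrichment of the 10 genes, 33.9, in untreated replicate 1, but only 13 in replicate 2, and ranked 314 and 4144 in these lists. With dox CTBP2 was 8.75 and 9.77, and EVI1 went from 14.2 and 18.6 to 10.9 and 11.8.

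SMAD3 (ENSG00000166949), the SMAD known to bind EVI1, lies on chromosome 15 (67356101 to 67487511). CTBP2 had 23 and 20 peaks untreated and 5 and 6 with dox, and EVI1 had 20 and 24 untreated and 17 and 16 with dox. Neither protein's groups overlapped, and CTBP2 was further apart. Unmodified MUTZ3 had 7 EVI1 and 8 CTBP2 peaks, and the 4xPLASS replicates had 1 and 8. All 12 CTBP2 sites overlapped an EVI1 site, beside 82.5% of all CTBP2 sites. All 12 also had a CTBP2 peak in MOLM1, beside 80.8% of sites at the 10 genes and 61.9% of all CTBP2 sites. Both overlaps were also complete for the 11 CTBP2 sites of SKI. In MOLM1, SMAD3 held 31 peaks. Dox kept CTBP2 at 4 sites in both replicates and at 2 in 1 replicate, and 6 were lost. EVI1 had 16 sites, of which 11 were kept in both, 2 in 1 and 3 in neither. The strongest site of either protein lies at an alternative start inside the gene (chr15:67390592-67391633, summit 148 bp upstream of that start). CTBP2 there was 17.8 and 15.5 untreated and 4.59 and 8.77 with dox, and EVI1 was 17.8 and 20.6 untreated and 12.7 and 10.5 with dox.

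A second SMAD3 intron site, chosen after its values were seen, showed the opposite for EVI1. At chr15:67385504-67386500, 4957 bp upstream of the same alternative start, EVI1 was 12.5 and 18.6 untreated and 39.3 and 28.2 with dox. By rank of fold enrichment it stood at 6268 of 51389 and 5150 of 72214 peaks untreated, and at 352 of 53806 and 675 of 47599 with dox. The log2 ratio of 1.12 was the highest of the 62 EVI1 sites at these genes with a peak in all 4 lists, whose median was −0.22, beside −0.25 over the 31593 such sites of the genome. CTBP2 at this place was 9.11 and 6.89 untreated and 6.07 and 11.2 with dox, so its groups overlapped. Of the 62 EVI1 sites, 6 had both dox values above both untreated ones, beside 13.4% of the 31593. The EVI1 summits of the 2 SMAD3 sites, with 50 bases either side, are shown because EVI1 moved in opposite directions there (hg19, plus strand, chr15:67390690-67390790 and chr15:67385913-67386013). Capitals mark a RUNX motif TGTGGT on the minus strand in the first, and an ETS motif AGGAAG and a SMAD box CAGAC in the second.
SMAD3 alternative start: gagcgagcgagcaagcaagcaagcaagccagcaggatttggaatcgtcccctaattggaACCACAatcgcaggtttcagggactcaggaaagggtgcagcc
SMAD3 intron: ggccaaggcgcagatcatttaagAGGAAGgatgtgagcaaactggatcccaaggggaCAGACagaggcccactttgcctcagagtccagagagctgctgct

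SMAD4 (ENSG00000141646), the partner of all receptor-regulated SMADs, lies on chromosome 18 (48554898 to 48611415) and had the fewest peaks of the 10 over all lists. Unmodified MUTZ3 cells had 0 EVI1 and 0 CTBP2 peaks in its window, MOLM1 had 2, and the 4xPLASS replicates had 0 and 2. In the inducible cells CTBP2 had 3 and 2 peaks untreated and 1 in each dox replicate, and EVI1 had 4 in each untreated replicate and 3 and 5 with dox. Its single CTBP2 site (chr18:48556259-48557381) was called only in the inducible cells. It lies at an annotated transcript start inside the gene coordinates given above. CTBP2 was 11.2 and 4.09 untreated and 3.21 and 3.68 with dox, and the untreated replicates lay further apart than the group means. EVI1 at the start was 5.82 and 9.91 untreated and 3.76 and 6.29 with dox. Its strongest EVI1 site lies beyond the end of the gene (chr18:48636618-48637233), at 5.60 and 14.2 untreated and 4.81 and 6.15 with dox, and the groups overlapped at both places.

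SMAD6 (ENSG00000137834), an inhibitory SMAD, lies on chromosome 15 (66994574 to 67075187). CTBP2 had 26 and 12 peaks untreated and 5 and 6 with dox, and EVI1 had 23 and 27 untreated and 18 and 17 with dox. Neither protein's groups overlapped. Unmodified MUTZ3 had 6 EVI1 and 4 CTBP2 peaks, MOLM1 had 12, and the 4xPLASS replicates had 2 and 9. SMAD6 had more EVI1 than CTBP2 sites, 16 against 9, and 8 of its EVI1 sites had no CTBP2 site. The strongest site of both proteins lies 26565 bp upstream of the start, between genes (CTBP2 site chr15:66967530-66968311), and was called in all 13 lists. EVI1 there was 26.1 in unmodified MUTZ3, 26.7 and 26.4 in untreated and 26.7 and 30.8 in dox-treated cells. These 5 EVI1 values lay closer together than those of CTBP2, which were 13.6 and 20.4 untreated and 8.03 and 10.2 with dox, with 19.2 in unmodified MUTZ3 and 21.9 in MOLM1. At the gene start CTBP2 was 11.4 and 8.67 untreated and 5.24 and 6.46 with dox.

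SMAD7 (ENSG00000101665), the inhibitory SMAD that acts on the TGF-beta receptor, lies on the minus strand of chromosome 18 (46446223 to 46477335). It had the most CTBP2 sites of the 10 genes, 16, at 17.6 per 100 kb of window beside a median of 2.39 over all genes. CTBP2 had 23 and 18 peaks untreated and 7 and 6 with dox, against 20 and 21 EVI1 peaks untreated and 18 and 19 with dox, so the groups were far apart for CTBP2 and close for EVI1. Unmodified MUTZ3 had 13 EVI1 and 9 CTBP2 peaks, MOLM1 had 12, and the 4xPLASS replicates had 5 and 12. Of the CTBP2 sites, 5 were kept in both dox replicates, 3 in 1 and 8 in neither, while 15 of 16 EVI1 sites were kept in both. The 2 CTBP2 sites at its start were each kept in 1 dox replicate only. EVI1 had a peak there in all 4 inducible lists. The strongest CTBP2 site is in an intron (chr18:46448756-46450099), with CTBP2 at 25.1 and 17.4 untreated and 9.04 and 8.56 with dox. EVI1 at this place was 8.85 and 14.9 untreated and 17.4 and 14.3 with dox, so CTBP2 was lower and EVI1 overlapped. Its strongest EVI1 site lies 51401 bp downstream of the nearest annotated transcript start, beyond the end of the gene (chr18:46422877-46424407). EVI1 fell there from 27.4 and 37.6 to 11.7 and 12.4. That log2 ratio, −1.43, was the lowest of the 62 EVI1 sites, and CTBP2 at the same place went from 20.2 and 13.3 to 4.25 and 4.85.

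The EVI1 summits of SMAD6 and SMAD7 are shown because EVI1 kept its level at one and fell at the other (hg19, plus strand, chr15:66967930-66968030 and chr18:46423424-46423524). No motif searched was found in the SMAD6 window. Capitals in the SMAD7 window mark 2 SMAD boxes CAGAC and an ETS motif AGGAAG.
SMAD6 upstream: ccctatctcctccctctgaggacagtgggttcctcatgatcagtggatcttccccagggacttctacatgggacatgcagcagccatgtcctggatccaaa
SMAD7 downstream: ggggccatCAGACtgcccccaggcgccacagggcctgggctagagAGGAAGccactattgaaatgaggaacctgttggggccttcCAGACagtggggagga

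SKI (ENSG00000157933), a corepressor that binds SMAD complexes, lies on chromosome 1 (2158827 to 2241652). CTBP2 had 29 and 13 peaks untreated and 6 and 3 with dox, and EVI1 had 15 and 30 untreated and 19 and 11 with dox. CTBP2 groups did not overlap and EVI1 groups did. Unmodified MUTZ3 had 9 EVI1 and 3 CTBP2 peaks, MOLM1 had 19, and the 4xPLASS replicates had 2 and 9. Dox kept 3 of its 11 CTBP2 sites in both replicates, 2 in 1 and 6 in neither. SKI was the 1 gene of the 10 whose start sites, those overlapping 1 kb either side of an annotated start of the gene, all lost CTBP2. Over all genes with a CTBP2 start site, 26% lost all of them. The 2 sites lie at chr1:2158746-2159375 (717 bp upstream) and chr1:2160224-2161376 (in a coding exon, 920 bp downstream). Both distances are from the annotated protein-coding transcript start, which lies inside the gene coordinates given above. The upstream site spans the first base of those coordinates. CTBP2 there was 11.0 and 7.88 at the upstream site and 7.23 and 5.03 at the exon site untreated, with no dox peak at either. EVI1 had a peak at both in all 4 lists, at 7.85 and 12.6 untreated and 3.94 and 4.34 with dox at the upstream site. EVI1 was lower with dox there, and at the exon site it was 9.26 and 11.3 untreated and 4.08 and 9.50 with dox.

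The strongest site of both proteins at SKI lies 62565 bp downstream of its annotated transcript start, in an intron (chr1:2221554-2223082), and was called in all 13 lists. EVI1 was 30.6 and 46.5 untreated and 37.1 and 29.5 with dox, the highest EVI1 levels among the strongest sites of the 10 genes in both untreated replicates. CTBP2 was 26.9 and 18.9 untreated and 12.3 and 15.0 with dox. By rank, CTBP2 stood at 796 and 1368 before and at 584 and 464 after dox. These lists held 62232, 56526, 24588 and 23878 peaks, so the ranks are not on one scale. The EVI1 summits of the lost start site and of this intron site are shown for contrast (hg19, plus strand, chr1:2159004-2159104 and chr1:2222250-2222350). Capitals mark an ETS motif AGGAAG in the first and an AP-1 motif TGANTCA in the second.
SKI start: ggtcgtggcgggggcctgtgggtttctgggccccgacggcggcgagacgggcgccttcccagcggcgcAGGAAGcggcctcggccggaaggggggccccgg
SKI intron: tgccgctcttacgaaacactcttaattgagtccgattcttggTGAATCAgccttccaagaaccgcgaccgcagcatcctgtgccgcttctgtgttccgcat

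SKIL (ENSG00000136603), the paralog of SKI and a known TGF-beta target, lies on chromosome 3 (170075130 to 170114623), in the same chromosome band as the rearranged EVI1 locus. Copy number in MUTZ3 was not measured here. CTBP2 had 2 and 4 peaks untreated and 1 and 2 with dox, EVI1 had 2 and 1 untreated and 2 in each dox replicate, and the groups overlapped. Unmodified MUTZ3 had 3 EVI1 and 2 CTBP2 peaks, MOLM1 had 5, and the 4xPLASS replicates had 1 and 2. SKIL held 1 site of each protein, at its start (CTBP2 site chr3:170074383-170076443), called in all 13 lists. EVI1 was 11.8 and 11.5 untreated and 20.4 and 15.6 with dox, so both dox values were above both untreated ones. CTBP2 was 9.50 and 6.57 untreated and 3.93 and 5.64 with dox, so the proteins moved in opposite directions at this place.

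**Figure D4:**
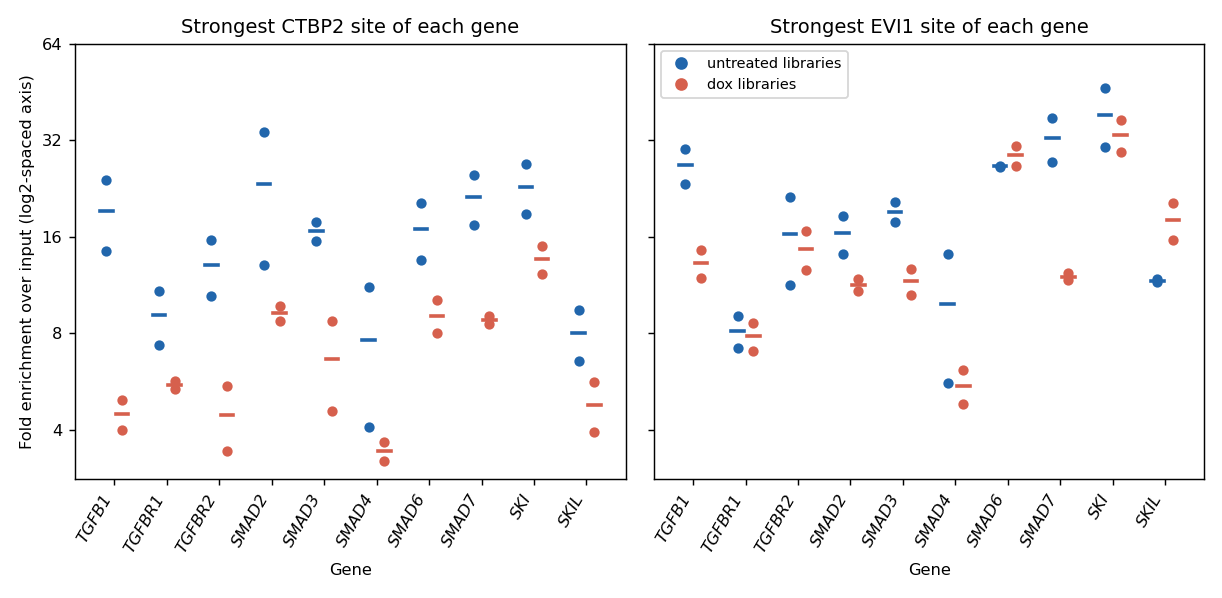
Fold enrichment over input at the strongest CTBP2 site (left) and EVI1 site (right) of each gene, on an axis spaced by log2. Points are single libraries and bars the means of 2. For CTBP2 both dox points lie below both untreated points at all 10 genes, and for EVI1 they do so at 4.

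At the strongest CTBP2 site of each gene, both dox values were below both untreated values at 10 of 10 genes. This was so for 24 of the 30 member sites with a CTBP2 peak in all 4 lists (80%) and for 72.5% of the 14297 such sites of the genome. The sites were picked as the strongest untreated ones, which favours a drop. At the strongest EVI1 sites, both dox values were below at 4 genes (TGFB1, SMAD2, SMAD3 and SMAD7) and above at 2 (SMAD6, by a margin within rounding in replicate 1, and SKIL). Over member EVI1 sites with a peak in all 4 lists, 24 of 62 (38.7%) were below, beside 35.3% of the 31593 such sites of the genome. The median log2 ratio of dox over untreated fold enrichment was −0.94 at the 30 CTBP2 sites and −0.88 over the 14297 of the genome. Fold enrichment is relative to the input of the same treatment and does not measure absolute binding.

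The kept share of CTBP2 sites was lower at weaker sites, at these genes and over the genome. Sites were ordered by the fold enrichment of untreated replicate 1 and cut into 5 groups of equal size over the genome. In the strongest group, 94.1% ± 8.32 of 17 member sites were kept, beside 87.6% ± 3.61 of all sites. In the second group 76.9% ± 10.9 of 13 member sites were kept, beside 59.8% ± 5.42, and in the third 30.6% ± 3.93 of 18, beside 41.4% ± 3.90. The kept share was 11.1% in both replicates for 9 sites of the fourth group, beside 30.7% ± 2.27, and 9.38% ± 4.42 for 16 sites of the weakest, beside 23.9% ± 0.038 (SD, n = 2 throughout). The members' decline across groups thus went from above to below that of all sites. The difference was not tested, and several sites share a gene. For EVI1, all 21 member sites of the strongest group were kept in both dox replicates, beside 99.7% ± 0.149 kept over all EVI1 sites. In the weakest group 59.5% ± 3.37 of 21 were kept, beside 68.6% ± 10.2 (SD, n = 2).

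**Figure D5:**
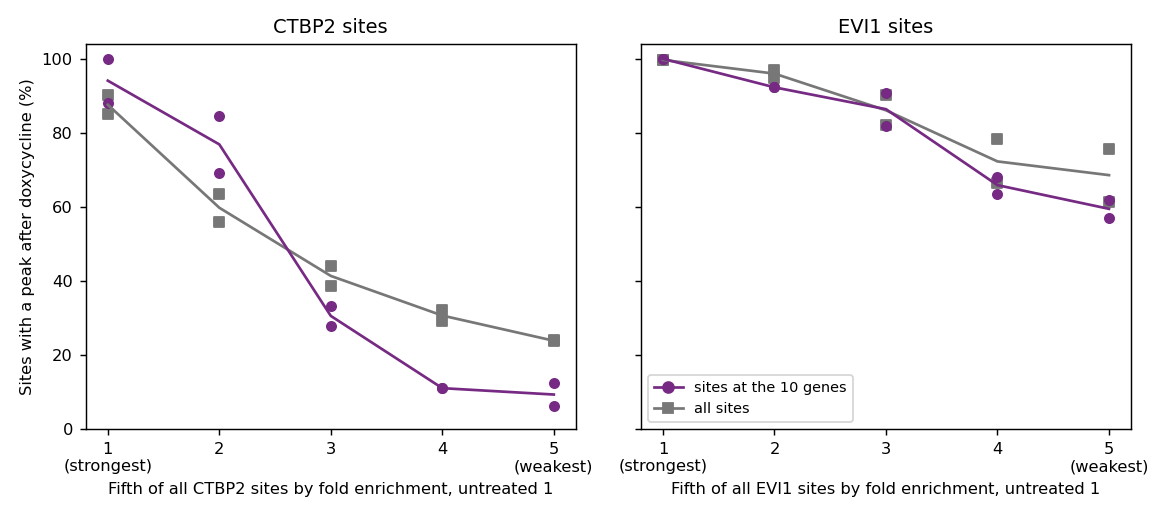
Percent of CTBP2 sites (left) and EVI1 sites (right) with a peak of the same protein after dox, in 5 groups ordered by the fold enrichment of untreated replicate 1, strongest first. Points are the 2 dox replicates and lines their means, in purple for the 10 genes and in grey for all sites. For CTBP2 the purple line starts at 94.1% and ends at 9.38%, and the grey one runs from 87.6% to 23.9%.

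Kept shares of CTBP2 sites near and far from a start were set side by side, without a test of the difference. Of 18 member sites overlapping 1 kb either side of a protein-coding start, 66.7% ± 7.86 were kept, beside 55.7% ± 7.94 of all such sites. Of 55 farther sites, 40.0% ± 2.57 were kept, beside 45.2% ± 0.592 (SD, n = 2). Member sites also found in unmodified MUTZ3 numbered 32 (43.8%, beside 31.2% of all CTBP2 sites). Of these, 71.9% ± 4.42 were kept, against 26.8% ± 3.45 of the 41 not found there (SD, n = 2). Over all CTBP2 sites these shares were 80.4% ± 0.652 and 34.3% ± 4.11, the same order.

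All 10 genes had a CTBP2 site in the window (background 82.4%), all 10 had one at an own start (background 58.2%), and all 10 had one that both dox replicates kept (background 60.4%). EVI1 likewise had a site in 10 windows (background 83.7%), one kept in both dox replicates in 10 (80.9%) and a start site at 10 (61.2%). None of the 10 lost EVI1 from all its start sites (background 1.75%). Their windows were also longer, with a median of 129 kb against 87.2 kb over all genes. A site at any annotated start counted, and these genes have from 1 (TGFBR2 and SKI) to 14 (SMAD3) such starts. The backgrounds are not matched for window length or number of starts. For the wider pathway, 38 further genes of TGF-beta, activin and BMP signalling were listed. A CTBP2 site lay in the window of 36 of them, all but INHBA and BMP2, which encode ligands. Both dox replicates kept a CTBP2 site at 27 (71.1%). The most CTBP2 sites lay at LTBP4 (13), which holds latent TGF-beta in the matrix, and JUNB (11), a TGF-beta target. All CTBP2 sites were lost at BAMBI, a decoy receptor (1 site), SMAD1, a BMP signal carrier (1 site), and PMEPA1, an inhibitor of SMAD signalling (3 sites). These are 7.89% of the 38 genes, beside 9.21% of all protein-coding genes. Over the wider list 43.5% ± 6.55 of 162 CTBP2 sites and 88.3% ± 4.66 of 167 EVI1 sites were kept (SD, n = 2).

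In unmodified MUTZ3 cells, where no peptide was expressed, 28 of 55 EVI1 peaks at the 10 genes (50.9%, Wilson interval 38.1 to 63.6) overlapped a CTBP2 peak, beside 43% of all EVI1 peaks. SMAD7 had the most EVI1 peaks, 13, of which 6 held CTBP2, and SKI had 9, of which 3 did. Of 49 CTBP2 peaks, 39 (79.6%, interval 66.4 to 88.5) had a CTBP2 peak in MOLM1, beside 70.2% over all CTBP2 peaks. Of the 140 MOLM1 peaks 105 (75%) overlapped EVI1 of an untreated inducible library, beside 57.1% of all MOLM1 peaks. Between the inducible and the unmodified cells, 48 of 55 unmodified EVI1 peaks (87.3%) lay on an EVI1 site, beside 82.3% over all. The 7 exceptions were at the receptors, where 0 of 2 peaks at TGFBR1 and 1 of 6 at TGFBR2 did so. For CTBP2, 37 of 49 unmodified peaks (75.5%) lay on a CTBP2 site, beside 78.5%, with 3 of 8 at TGFBR2. The unmodified lists are 1 library each, and the proteins were crosslinked differently, so protocol and protein cannot be told apart in this overlap. In the 4xPLASS control cells 14 of the 73 CTBP2 sites (19.2%) were called in replicate 1 and 43 (58.9%) in replicate 2, whose list was longer, beside 13.7% and 52.2% of all CTBP2 sites. Of the 18 peaks of replicate 1, 16 overlapped replicate 2 (background 88.7%) and 16 overlapped unmodified CTBP2 (background 81%). Of the 74 peaks of replicate 2, 38 (51.4%) overlapped unmodified CTBP2, beside 42.3%.

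In windows of 50 bases either side of the 88 EVI1 summits, letters were searched on both strands and set beside 39661 such windows of all EVI1 sites on chromosomes. The known EVI1 motifs GACAAGATA and GAAGATGAG were in 0 member windows each, and in 0.169% and 0.358% of all. The ETS motif AGGAAG was in 29 (33.0%, all 27.4%), the SMAD box CAGAC in 28 (31.8%, all 23.9%), the AP-1 motif TGANTCA in 6 (6.82%, all 3.3%), the RUNX motif TGTGGT in 6 (6.82%, all 10.8%) and the GATA motif AGATAA in 2 (2.27%, all 4.49%). The palindrome GTCTAGAC was in 1 window, at the start of SMAD6, and in 0.063% of all. SMAD6 and SMAD7 held 17 of the 28 windows with a SMAD box, 9 and 8 of 16 each. A match is a description of the letters and not a measured contact.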

How the data were processed

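ChIP-seq peak lists of EVI1 and CTBP2 from 13 libraries were used. Per the paper's methods and the labels, the authors aligned reads to hg19 with bowtie 1.1.1 and ran MACS2 (2.1.2 in the submitters' processing notes) library by library at default settings against a matched input. The deposited lists hold fold enrichment over input (a ratio), −log10 p and q-values, a score that is the −log10 q on another scale (not used) and the summit. Read counts and depth were not used here. Peaks were assigned to GENCODE release 44 genes lifted to hg19, body and 30 kb either side, and compared by an overlap of at least 1 bp (Python 3, numpy, pandas, scipy), after the overlap code was tested on simulated lists. A site is the merged interval of peaks from both untreated libraries, and levels are the highest overlapping peak. Peak numbers were compared by exact permutation, since the study's read-based comparison needs reads. Shares carry the SD over 2 libraries or a 95% Wilson interval.

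The members and gene lists were chosen with earlier results of these data known. All 10 genes are named with their peak numbers in every list. By rule, sites were named as the strongest of each protein or at an own start, and the other sites, and single genes within a comparison, after their values were seen. Alternatives were the thresholds, windows, overlap rule, list length and libraries.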

Additional observations from a re-analysis of the deposited data

How the results depend on the processing

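The CTBP2 kept share of 46.6% moved beyond its SD with peaks of fold enrichment of at least 5 (34.7%), lists of equal size (80.6%) and sites of either untreated library (23.8%), and lay between 25% and 49.3% when 1 library was left out. The lowest was without untreated replicate 2. The EVI1 kept share of 79.0% became 84.2% at −log10 q of at least 5, 82.0% at fold enrichment of at least 5, 80.1% with 10 kb and 80.9% with 100 kb either side, 76.7% with 50% overlap, 88.1% with lists of equal size and 52.5% with sites of either library, and lay between 54.2% and 79.5% when 1 library was left out. CTBP2 sites with an EVI1 site (91.8%) became 81.0% at −log10 q of at least 5, 79.6% at fold enrichment of at least 5, 100% with lists of equal size, 73.5% with sites of either library and 71.2% with summits within 200 bp, and lay between 63.0% and 97.3% when 1 library was left out. EVI1 peaks with CTBP2 in unmodified MUTZ3 rose from 50.9% to 81.8% against CTBP2 sites of the inducible cells. The EVI1 peak number reversed, to a log2 ratio of 0.07, with lists of equal size, where each list holds as many peaks by construction. The cause of the other shifts was not tested. Of 102 alternatives, 74 left their result within its spread or direction, 27 moved it and 1 reversed it. Peak numbers were judged by direction alone. The CTBP2 log2 ratio of −0.09 with lists of equal size, against −1.44, is therefore among the 74. Kept shares were judged against an SD over 2 libraries, only 0.804 for EVI1. The tally is thus not a measure of robustness. The number of genes with a CTBP2 site stayed between 9 and 10, and with a kept one between 8 and 10.

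Pairing replicates by number (replicate block) gave a kept share of 31.8% for CTBP2 and 61.6% for EVI1, and 70.0% for CTBP2 peaks with EVI1, since sites are then the peaks of single libraries. Deviations of same-numbered libraries correlated at 0.21 over 14297 CTBP2 sites and −0.23 over 31593 EVI1 sites, and the labels tie the numbers to nothing. With the EVI1 numbers crossed, an alternative chosen after seeing the data, the kept share was 63.6%, and 82 of 117 and 81 of 142 peaks had a dox peak, against 84 and 73 as numbered. Peak lists show whether enrichment passed the caller's threshold, and depth limits which weak sites can pass it.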
